A study of Mus musculus with 6 samples.

Results

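The imprinted Dlk1-Dio3 region of mouse chromosome 12 carries miRNAs upstream of the noncoding gene Mirg, and 10 mature miRNAs of that stretch are described here, of 1966 rows in the deposited table. They were chosen by name and position: 6 lie antisense to Rtl1 (miR-431-5p, miR-433-3p, both arms of miR-127 and both arms of miR-434), 2 lie within Rian (miR-341-3p and miR-370-3p), and both arms of miR-337 lie between Meg3 and Rtl1. Small RNA was counted in hearts of male wild-type (WT) mice 8 weeks after surgery, with 3 mice in each group. Mice 47, 68 and 69 had sham surgery, and transverse aortic constriction (TAC) was done in mice 29, 78 and 81. TAC ties a suture around the aortic arch and loads the left ventricle with pressure, whereas sham mice have the operation without the constriction. Each column of the table is 1 mouse. The labels give no strain name, no age and no batch, and hearts were sampled whole, so fewer cells of a type and less RNA per cell cannot be told apart.

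Imprinted genes are expressed from 1 parental allele. In the Dlk1-Dio3 region the noncoding RNAs Meg3, Rian and Mirg and the miRNAs are read from the maternal chromosome, while the protein-coding genes Dlk1, Rtl1 and Dio3 are read from the paternal one. Rtl1 is a retrotransposon-derived gene needed in the placenta, and the miRNAs made from the transcript antisense to it pair with its mRNA over their whole length and direct its cleavage. Rian is a host of box C/D small nucleolar RNAs and of a few miRNAs. The miRNAs of the region are known to be abundant in the embryo, the placenta and the brain, and low in most adult tissues.

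The mature sequences of the 8 miRNAs that had counts are shown because the seed, bases 2 to 8 in capitals, sets which mRNAs a miRNA can pair with. They are RefSeq entries on GRCm38.p6, written 5′ to 3′, and for all 10 miRNAs the coordinates were those of the table (build mm10).
miR-431-5p: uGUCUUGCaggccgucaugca
miR-433-3p: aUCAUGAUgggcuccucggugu
miR-127-5p: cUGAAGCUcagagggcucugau
miR-127-3p: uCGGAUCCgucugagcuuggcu
miR-434-5p: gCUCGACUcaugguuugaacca
miR-434-3p: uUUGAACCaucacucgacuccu
miR-341-3p: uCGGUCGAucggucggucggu
miR-370-3p: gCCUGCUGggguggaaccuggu
Their seeds all differed from each other, and 0 of the other mature mouse miRNAs in the RefSeq table, which lists 1679 by name, shared a seed with any of the 10. None of the 10 had another mature miRNA within 2 mismatches, and each had 1 place in the genome, so their counts are not shared with a near-identical copy among the sequences compared. They share a region and a strand, then, but not a seed.

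All 10 lie on the plus strand within 32.5 kb. In GENCODE release M21, which uses the same assembly, the 6 miRNAs antisense to Rtl1 lie within 4.13 kb over the coding sequence of Rtl1, a gene of the minus strand (chr12:109589193-109600330). The miR-127 hairpin occupies chr12:109592846-109592915 and the miR-434 hairpin chr12:109594506-109594599. Both are printed with their 5p and 3p arms in capitals, since the level of each arm was measured separately.
Mir127: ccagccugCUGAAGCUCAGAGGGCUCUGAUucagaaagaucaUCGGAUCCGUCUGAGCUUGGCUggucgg
Mir434: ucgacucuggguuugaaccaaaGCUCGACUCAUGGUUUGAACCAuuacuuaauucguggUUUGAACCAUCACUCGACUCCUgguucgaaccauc
miR-341-3p (chr12:109611556-109611576) and miR-370-3p (chr12:109618305-109618326) lie in introns of Rian on the strand of that gene.

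The antisense position means that each of the 6 has a fully complementary stretch in the Rtl1 mRNA. All 6 complements were found at full length in the 1 Rtl1 transcript of GENCODE M21, and 0 for miR-337-5p, miR-337-3p, miR-341-3p and miR-370-3p. The 22-base sites of the most abundant 3p arms are given from the mRNA, 5′ to 3′, with the bases that face the seed in capitals.
Rtl1 site of miR-127-3p: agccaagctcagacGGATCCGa
Rtl1 site of miR-433-3p: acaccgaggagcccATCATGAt
These sites follow from the annotation. Rtl1 mRNA was not measured in these libraries.

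Total counts were 1818725 to 3509001 in sham and 1226187 to 1795831 in TAC, so every sham library was deeper than every TAC library. Levels are given in CPM, the count per 1e+06 counts, scaled by TMM (trimmed mean of M values), whose factors were 1.10 to 1.13 in sham and 0.868 to 0.921 in TAC. The 4 heart muscle miRNAs of a marker list held 16.9% to 20.04% of counts in sham and 24.8% to 28.3% in TAC. The pair of endothelial markers, miR-126a-3p and miR-126a-5p, were at 0 in every library, and both lie over rows of the opposite strand.

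The 10 miRNAs were a small part of the cardiac miRNA pool and made up a smaller one after TAC. Together they held 0.300%, 0.318% and 0.411% of all counts in the sham hearts 47, 68 and 69, against 0.170%, 0.217% and 0.143% in TAC 29, 78 and 81. Every TAC heart was below every sham heart. Shares of library totals fell for most tested miRNAs. On that scale the median log2 fold change over all of them was -0.23, and 227 of 354 were negative. With TMM scaling, the sum over the 10 averaged 3081 ± 499 CPM in sham hearts and 1958 ± 385 CPM in TAC hearts (SD, 3 hearts a group). Of the 10, 7 passed the low-count filter and were tested, miR-431-5p did not pass, and both arms of miR-337 had no count. By edgeR's quasi-likelihood test over all 354 tested miRNAs, with Benjamini-Hochberg adjustment and a threshold of 0.05, 4 of the 7 were lower in TAC and 0 higher, where 30.5% of all tested miRNAs were called, 11.3% as lower and 19.2% as higher. All 7 had a negative log2 fold change, which was the case for 45.5% of all tested miRNAs. The median log2 fold change of the 7 was -0.62, against 0.07 over all tested miRNAs. None of the 7 had a positive log2 fold change by DESeq2 or limma-voom either, and both tools called 5 of the 7 lower. Over all 354 tested miRNAs, DESeq2 called 50 lower and limma-voom 41.

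**Figure D1:**
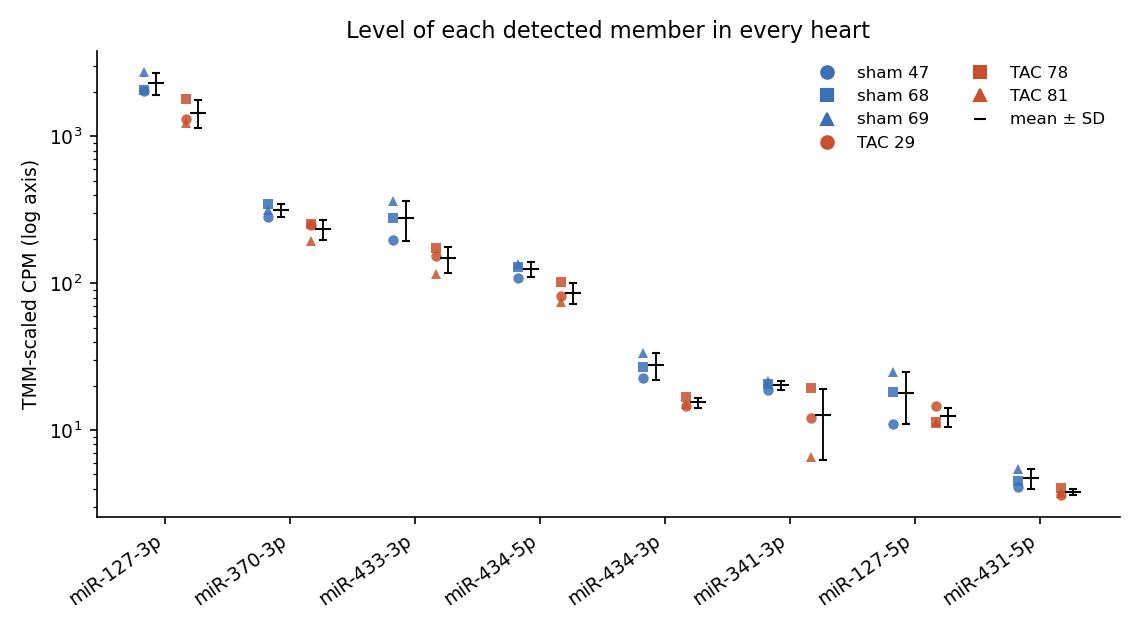
TMM-scaled CPM (log axis) of the 8 miRNAs with counts, in order of their mean level, with 1 symbol per heart (blue sham, red TAC) and the mean ± SD of 3 hearts in black. The levels run from 4.25 CPM for miR-431-5p to 1869 CPM for miR-127-3p, and TAC hearts lie below sham hearts for all but miR-341-3p and miR-127-5p, where the groups overlap.

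miR-127-3p, the most abundant of the 10 and a miRNA that cleaves Rtl1 mRNA in mouse, ranked 53 of all rows by mean CPM. It was at 2048, 2082 and 2744 CPM in sham 47, 68 and 69, and at 1312, 1806 and 1224 CPM in TAC 29, 78 and 81. The highest TAC heart, 78, was below the lowest sham heart, 47. On the log2 scale the change was -0.66 ± 0.17 (SE), a 1.58-fold lower level, with an edgeR adjusted p = 0.0192. Leaving out TAC 81 gave -0.55 and an adjusted p = 0.0548, and the call held under each of the 16 other alternatives.

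miR-433-3p, which has been studied in rodent cardiac fibroblasts and fibrosis, showed the widest difference of the 7 tested. It was at 196, 277 and 364 CPM in sham 47, 68 and 69, and at 152, 175 and 116 CPM in TAC 29, 78 and 81. Sham hearts were widely spread, with 47 lowest and 69 highest, and all lay above the TAC hearts. The log2 fold change was -0.91 ± 0.24, a 1.88-fold lower level (edgeR adjusted p = 0.0226). The call was lost without sham 68 (adjusted p = 0.0512) and without TAC 81 (adjusted p = 0.0548). The other arm, miR-433-5p, had 1 count in the 6 libraries together.

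Both arms of miR-434, a miRNA described in ageing mouse muscle, fell. miR-434-5p was at 109, 130.0 and 136 CPM in sham 47, 68 and 69, and at 81.6, 101.4 and 75.2 CPM in TAC 29, 78 and 81, with no overlap between the groups. Its log2 fold change was -0.54 ± 0.17 (edgeR adjusted p = 0.0431). miR-434-3p was at 22.5, 27.1 and 33.7 CPM in the same sham hearts and at 14.5, 16.8 and 15.0 CPM in the TAC hearts, which again all lay lower. Its log2 fold change was -0.83 ± 0.22 (edgeR adjusted p = 0.0241). Among the fits that left out 1 mouse, the call of miR-434-5p held only without TAC 78, and that of miR-434-3p was lost without sham 69, TAC 29 or TAC 81 (adjusted p of 0.0829, 0.0586 and 0.0553).

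Among the 10, the other pair antisense to Rtl1 gave no call, since miR-127-5p did not pass the threshold and miR-431-5p did not pass the low-count filter. miR-127-5p was at 10.99, 18.1 and 25.1 CPM in sham 47, 68 and 69, and at 14.5, 11.4 and 11.3 CPM in TAC 29, 78 and 81. The groups overlapped, since sham 47 was lower than every TAC heart. The log2 fold change was -0.50 ± 0.34 (edgeR adjusted p = 0.276), and without sham 69 it was -0.18. miR-431-5p, from a hairpin known in mouse for promoting muscle regeneration, had 16, 9 and 14 counts in the sham hearts 47, 68 and 69, against 6, 6 and 4 in TAC 29, 78 and 81. Those are 4.09, 4.52 and 5.48 CPM for the sham hearts and 3.63, 4.03 and 3.76 CPM for the TAC hearts. The groups did not overlap, although sham 47 and TAC 78 nearly met. Without a low-count filter its log2 fold change was -0.45 ± 0.52 (edgeR adjusted p = 0.665). That fit had scaling factors of its own, unlike those of the CPM above. Its median log2 fold change over all tested miRNAs was -0.14, against 0.07 as reported.

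The pair of miRNAs within Rian had negative log2 fold changes that did not pass the threshold. miR-370-3p, which targets the carnitine palmitoyltransferase gene Cpt1a in liver cells, was at 284, 348 and 315 CPM in sham 47, 68 and 69, and at 251, 255 and 193 CPM in TAC 29, 78 and 81. Every TAC heart was below every sham heart. The log2 fold change was -0.44 ± 0.15, just outside the threshold (edgeR adjusted p = 0.0543). It was called lower in 10 of the 11 alternatives that kept all mice, the exception being the GC trend, and in 0 of the 6 edgeR fits that left out 1 mouse (adjusted p of 0.0662 to 0.149). Those 10 alternatives also called more of all tested miRNAs lower, 41 (limma-voom) to 102 (library totals), against 40 as reported. miR-341-3p, a miRNA of rodents, was at 18.7, 20.6 and 21.5 CPM in sham 47, 68 and 69, and at 12.1, 19.5 and 6.58 CPM in TAC 29, 78 and 81. TAC 78 lay within the sham range, and the TAC hearts spread more widely than the sham hearts. These levels rest on 73, 41 and 55 counts in the sham hearts and on only 20, 29 and 7 in the TAC hearts. How much of the TAC spread is counting error was not tested. The log2 fold change was -0.62 ± 0.32 (edgeR adjusted p = 0.160). It was -1.06 without TAC 78, -0.36 without TAC 81 and -0.40 with the GC trend, none of them called, and 2 of 16 alternatives called it lower (library totals and no low-count filter). By edgeR 0 of these 2 were called and 1 had an unadjusted p under 0.05, while DESeq2 and limma-voom called 1 of the 2, miR-370-3p. Whether the miRNAs of Rian changed less than those antisense to Rtl1 was not tested.

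Groups that do not overlap were seen for 5 of the 7 tested miRNAs, all lower in TAC. Over all tested miRNAs, 22.0% had every TAC heart below every sham heart, and 51.4% had groups apart in either direction. The calls rest on few mice. Without TAC 81, 0 of the 7 were called by edgeR (adjusted p of 0.0548 to 0.394), with 4 at an unadjusted p under 0.05. There were 2 calls without sham 68, sham 69 or TAC 29, 3 without sham 47 and 4 without TAC 78. Over all tested miRNAs the lower calls fell as well, from 40 to 18 without TAC 81. They numbered 25 to 29 without any other single mouse. The direction did not change: all 7 kept a negative log2 fold change in each of the 17 alternatives that tested it, of which 1, thinning all libraries to the smallest total, was chosen after the data were seen and called 5 of the 7. Of all 317 miRNAs tested after thinning, 41 were called lower.

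**Figure D2:**
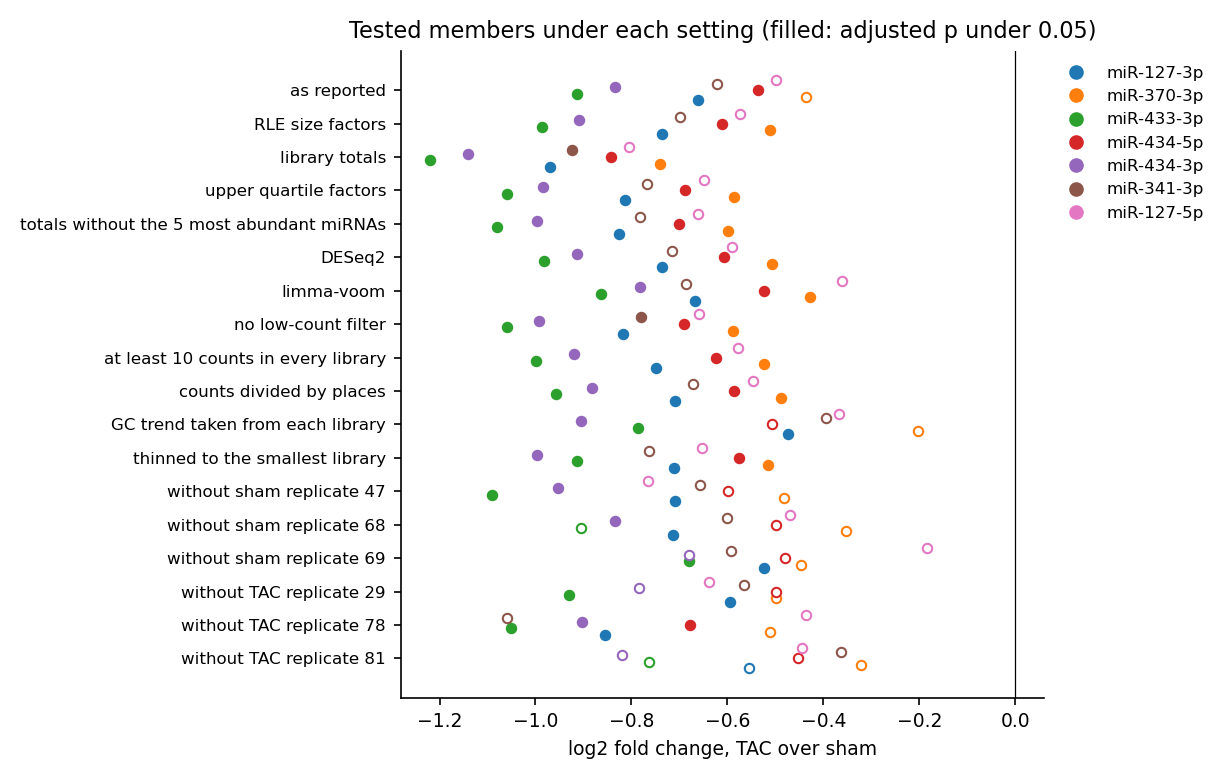
Log2 fold change (TAC over sham) of the 7 tested miRNAs, 1 row per way of processing, with filled symbols for an adjusted p under 0.05. All symbols lie below 0, from -1.22 (miR-433-3p with library totals) to -0.18 (miR-127-5p without sham 69), and the row without TAC 81 has no filled symbol.

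Both arms of miR-337 had 0 counts in all 6 libraries, and whether these zeros mean absence cannot be told from the counts. The rows of miR-3544, annotated on the minus strand, cover them in part: miR-3544-5p covers 21 of the 22 bases of miR-337-3p, and miR-3544-3p covers 17 of the 22 bases of miR-337-5p, shown in capitals.
miR-337-3p: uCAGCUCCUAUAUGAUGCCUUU
miR-337-5p: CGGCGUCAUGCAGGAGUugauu
Of the 90 rows of the table that an opposite-strand row covered by 10 bases or more at every place, 82 were at 0 in all libraries, against 784 of 1873 rows without such overlap. The same held for miR-136, another hairpin antisense to Rtl1, whose arms were both at 0 and lie over miR-3071. The opposite row miR-3071-3p, which overlaps miR-136-5p by 20 bases, had 2 counts in sham 68 and 1 in TAC 81. The strand setting of the counting is not given in the sources used here. If such reads could be assigned, a count of 0 would allow up to 3 counts, or 0.855 to 2.45 CPM of library totals, for counting error only.

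Within a library, the proportions among the 4 most abundant miRNAs overlapped between the groups. miR-127-3p held 71.6% to 76.0% of the counts of the 10 in sham and 71.2% to 75.6% in TAC. miR-370-3p held 8.64% to 11.97% in sham and 10.7% to 13.6% in TAC, miR-433-3p 7.26% to 9.99% and 7.03% to 8.27%, and miR-434-5p 3.74% to 4.47% and 4.25% to 4.57%. The smallest share was the exception: miR-431-5p held 0.150% to 0.155% in sham hearts and 0.169% to 0.229% in TAC hearts, on 4 to 16 counts a library. The order by mean CPM was miR-127-3p, miR-370-3p, miR-433-3p, miR-434-5p, miR-434-3p, miR-341-3p, miR-127-5p and miR-431-5p, and it was the same per nucleotide, since all are 21 or 22 nt long. Neighbours in that order overlapped for miR-370-3p and miR-433-3p among sham hearts, for miR-434-3p and miR-341-3p among TAC hearts, and for miR-341-3p and miR-127-5p in both groups.

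**Figure D3:**
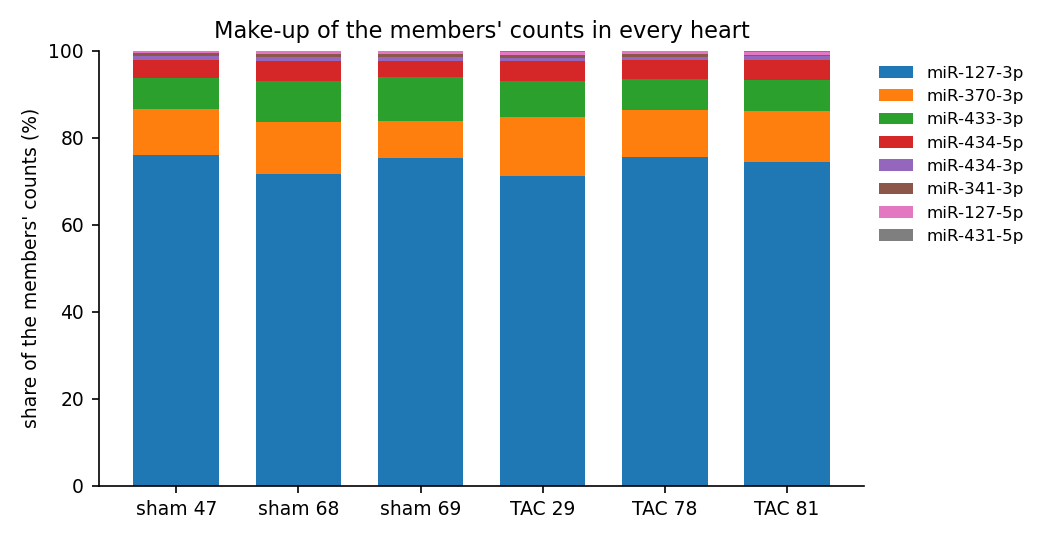
Share (%) of the counts of the 10 miRNAs that each of the 8 detected ones held, 1 bar per heart, sham on the left and TAC on the right. miR-127-3p takes between 71.2% and 76.0% in every heart, and miR-370-3p between 8.64% and 13.6%.

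The ratio of one miRNA to another within a library does not depend on how libraries are scaled. The counts of the Rian pair over those of the 6 miRNAs antisense to Rtl1 gave a log2 ratio of -2.98, -2.78 and -3.30 in sham 47, 68 and 69, against -2.59, -2.95 and -2.86 in TAC 29, 78 and 81. The group means of -3.02 ± 0.26 and -2.80 ± 0.19 (SD, n = 3 each) differed by less than the spread between sham hearts. The log2 ratio of miR-433-3p to miR-127-3p was -3.07 ± 0.27 in sham and -3.29 ± 0.16 in TAC, and that of miR-370-3p to miR-127-3p was -2.85 ± 0.27 and -2.63 ± 0.22. These differences too lay within the spread of the sham hearts, as did those of miR-434-5p, miR-341-3p and miR-127-5p relative to miR-127-3p. The log2 ratio of miR-434-3p to miR-127-3p was -6.37 ± 0.12 in sham hearts and -6.53 ± 0.20 in TAC hearts, a difference larger than the SD of the sham hearts, with groups that overlapped. That of miR-431-5p, on its 4 to 16 counts a library, was -8.93 ± 0.07 in sham hearts and -8.55 ± 0.23 in TAC hearts, and the groups did not overlap. None of these ratios was tested.

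Each hairpin had a preferred arm, and it was the same arm in both groups. The 3p arm held 99.97% of the hairpin's counts for miR-433 over the 6 libraries, 99.5% for miR-370, 99.2% for miR-127, 89.6% for miR-341 and 80.4% for miR-431. miR-434 was the exception, with 82.7% of counts on the 5p arm. The ratio of the arms was tested for miR-127 and miR-434, and could not be computed for miR-337, which had no counts. The log2 ratio of 5p to 3p counts of miR-434 was 2.28, 2.25 and 2.01 in sham 47, 68 and 69, against 2.47, 2.57 and 2.29 in TAC 29, 78 and 81. The difference of 0.26 had a two-sided exact permutation p = 0.1, the smallest that 3 against 3 allows, and 0.2 adjusted over the 2 hairpins. With 1 count added to each arm in place of 0.5 the difference was 0.24 and the exact permutation p was 0.2. The log2 ratio of miR-127 averaged -7.04 ± 0.42 over sham hearts and -6.81 ± 0.41 over TAC hearts (SD). The difference of 0.23 had an exact permutation p = 0.5 and turned to -0.016 without sham 47. For miR-431 the 5p arm held 16.3%, 18.8% and 19.2% of the hairpin's counts in sham 47, 68 and 69, against 27.3%, 27.3% and 23.5% in TAC 29, 78 and 81. Every TAC heart was above every sham heart. Those shares rest on 17 to 98 counts a library. Their exact Clopper-Pearson 95% intervals, which cover counting error only, were 9.63% to 25.2% in sham 47 and 10.7% to 50.2% in TAC 29. That share was picked out after its values were seen and is given with no test.

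The rest of the region was compared to see whether the 10 stood apart. Of the other 28 rows upstream of Mirg, 11 were at 0 in all libraries and 5 could be tested. All 5 had a negative log2 fold change, against 45.5% of all tested miRNAs, with a median of -0.64. Of the 5, 1 was called lower, against 11.3% of all tested miRNAs. That was miR-431-3p, the preferred arm of the miR-431 hairpin, which also lies antisense to Rtl1. It was at 20.96, 19.6 and 23.1 CPM in sham 47, 68 and 69, against 9.68, 10.7 and 12.2 CPM in TAC 29, 78 and 81. Its log2 fold change was -0.98 ± 0.22 (edgeR adjusted p = 0.0113), and the call held in 16 of 17 alternatives, including each fit that left out 1 mouse. The exception was thinning to the smallest total (adjusted p = 0.0804). miR-540-3p was at 23.7 ± 4.76 CPM in sham and 16.3 ± 2.25 CPM in TAC, and miR-673-5p at 61.6 ± 12.7 and 41.9 ± 10.1 CPM (SD, n = 3 each), with adjusted p of 0.0987 and 0.0996 by edgeR.

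Of 77 rows of the Mirg region, further along the same strand, 17 were tested, 6 were called lower and 11 not called. Over all tested miRNAs 11.3% were called lower. The median log2 fold change of the 17 was -0.50, and 15 of them were negative, against 45.5% of all tested miRNAs. The 6 called rows ranged from -1.40 to -0.50, reaching further down than the 7 tested of the 10, while the most abundant 3 were not called: miR-381-3p was at 129 CPM in sham and 141 CPM in TAC (log2 fold change 0.14 ± 0.18), miR-379-5p at 137 and 107 CPM (-0.35 ± 0.17) and miR-411-5p at 130.3 and 100.7 CPM (-0.37 ± 0.22). miR-381-3p turned to -0.17 with library totals. The log2 ratio of the summed counts of the 10 to those of the Mirg region was 1.86, 1.64 and 1.93 in sham 47, 68 and 69, against 1.46, 1.70 and 1.39 in TAC 29, 78 and 81. TAC 78 lay within the sham range, and the ratio was not tested. Whether upstream rows and Mirg rows changed by different amounts was not tested.

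**Figure D4:**
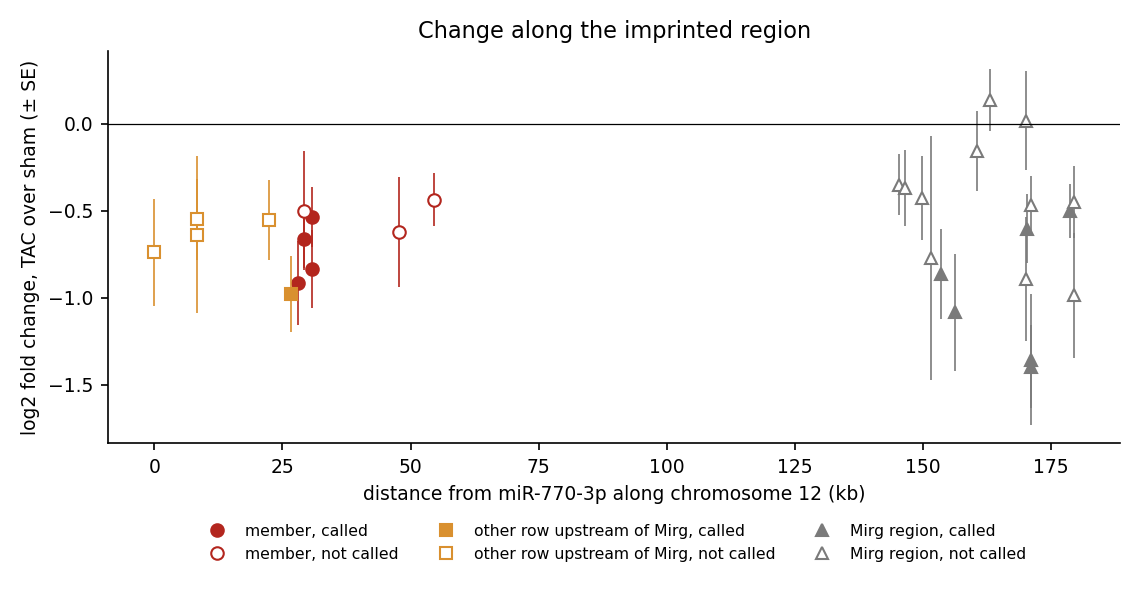
Log2 fold change ± SE (TAC over sham) of the tested miRNAs of the region against distance (kb) from miR-770-3p along chromosome 12, in red for the 7 tested members, orange for other rows upstream of Mirg and grey for the Mirg region, filled where called. The 12 upstream points lie between -0.98 and -0.44, and the 17 points of the Mirg region between -1.40 and 0.14.

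Among the tested miRNAs outside the stretch upstream of Mirg, 5 followed the 7 most closely by the mean absolute difference of log2 CPM, relative to each miRNA's own mean, over the 6 libraries. miR-210-3p, which is induced by hypoxia, came first at 0.058, then miR-351-5p at 0.1002, miR-485-3p at 0.102, miR-132-5p at 0.120 and miR-541-5p at 0.132. The 7 tested miRNAs themselves were 0.080 (miR-434-5p) to 0.246 (miR-127-5p) away from their own average. miR-485-3p and miR-541-5p belong to the Mirg region. miR-210-3p, on chromosome 7, was at 240.0 CPM in sham and 144 CPM in TAC (log2 fold change -0.73 ± 0.17, edgeR adjusted p = 0.0133). It was picked for following the 7 in these same libraries, so its lower level in TAC follows from that choice.

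In that average, sham 47 was 0.05 and TAC 78 was -0.08 relative to the mean of all hearts, so these 2 libraries were close to each other. Sham 69 was at 0.58 and TAC 81 at -0.60, the ends of the range. Most of the distance between the groups came from sham 68, sham 69, TAC 29 and TAC 81, at 0.36, 0.58, -0.30 and -0.60.

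Some markers of cell types were also called, where 19.2% of all tested miRNAs were called higher and 11.3% lower. The part of such cells in the fall of the imprinted miRNAs was not tested. Of 7 mesenchymal and fibroblast miRNAs, 5 were lower and 2 not called, and their summed share of counts was 3.38% to 4.69% in sham and 1.88% to 2.25% in TAC. All 4 heart muscle miRNAs were higher. Of 3 smooth muscle miRNAs 2 were higher, of 4 tested leukocyte miRNAs 1 (0.0237% to 0.0260% of counts in sham and 0.0304% to 0.0318% in TAC) and of 3 red blood cell miRNAs 1 (0.111% to 0.128% and 0.149% to 0.266%). The other 3 leukocyte and 2 red blood cell miRNAs tested were not called, and 1 call in so short a list is near the share over all tested miRNAs. Another leukocyte miRNA of the list, miR-142a-3p, was at 0 in every library but lies over an opposite-strand row. Of 6 neuronal miRNAs, listed because the region is active in brain, miR-124-3p had 0 to 6 counts a library, and miR-9-5p and miR-9-3p were at 0 but lie over opposite-strand rows. miR-128-3p, which heart muscle also expresses, was higher. miR-129-5p, on 24 to 198 counts a library and with an opposite-strand row over it, was lower. miR-138-5p, on 2 to 33 counts a library, was not called. The skeletal muscle miRNA miR-206-3p was higher.

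GC content moved with the fold changes over the whole table, and its part in the result was not tested beyond the following values. The median log2 fold change was 0.44 over the 54 tested miRNAs under 40% GC and -0.20 over the 69 at 60% GC or more. The 7 tested miRNAs had 45.5% to 68.2% GC, with a median of 54.5%, against 50% over the 315 of 354 tested miRNAs (89.0%) with a sequence in the RefSeq table. With the GC trend taken from each library, miR-433-3p was at -0.79, miR-434-3p at -0.91 and miR-127-3p at -0.47, all 3 still called by edgeR (adjusted p of 0.0327, 0.019 and 0.037). miR-434-5p was then at -0.51 and not called (adjusted p = 0.0631), and miR-370-3p, the richest in GC, went from -0.44 to -0.20 (adjusted p = 0.423).

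**Figure D5:**
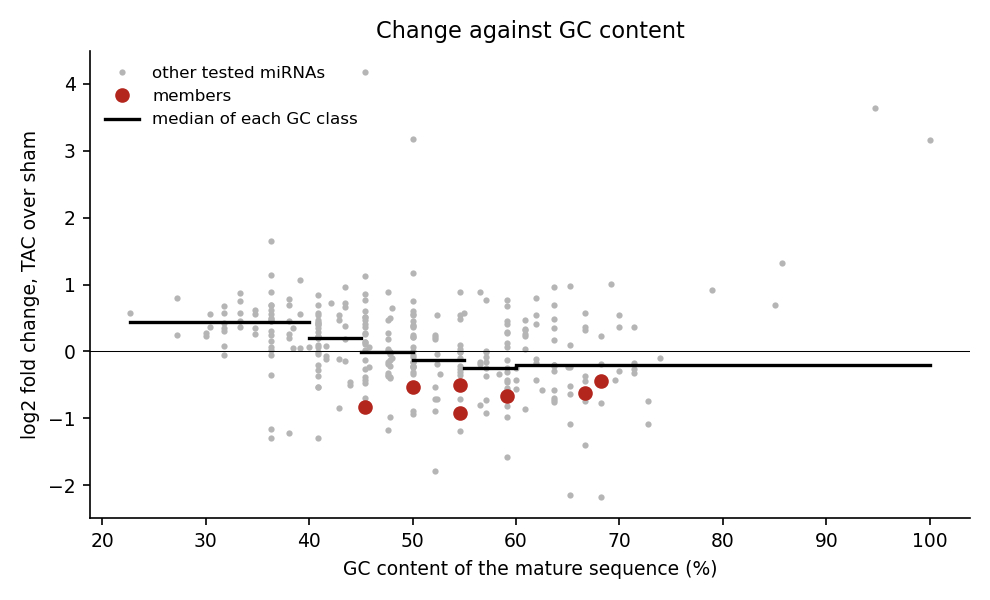
Log2 fold change (TAC over sham) against GC content (%) of the mature sequence for the 315 tested miRNAs with a sequence, with the 7 tested members in red and the median of each GC class as a black line. The class medians go from 0.44 under 40% GC to -0.20 at 60% or more, and each red point lies below the median line of its class.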

How the data were processed

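The authors deposited whole-number read counts per mature miRNA, 1 column per mouse, with places on build mm10. The submitters' processing notes list HISAT2, StringTie and DESeq2 without saying what each did. Which counter, trimming and strand setting were used is not given in the sources used here. Differences were tested over the whole table by edgeR's quasi-likelihood method (edgeR 4.0.16 in R 4.3.3, with TMM factors, filterByExpr and no covariate), with Benjamini-Hochberg adjustment over 354 miRNAs. DESeq2 1.42.0 and limma 3.58.1 (voom) were alternatives, and the pipeline was tested on simulated data. Arm ratios used 0.5 added counts and an exact permutation test (scipy 1.17.1). Likeness used log2(CPM + 0.5). Animal numbers are not shared between groups, so nothing pairs the samples. Each sample is 1 mouse per the labels, so p-values measure the spread between mice. The miRNAs, marker lists and comparisons were chosen with earlier results of these data known. Besides the 10 miRNAs, those named were upstream rows called or at 10 CPM or more, the 3 most abundant Mirg rows and the 5 most alike.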

Additional observations from a re-analysis of the deposited data

How the results depend on the processing

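Against 108 miRNAs called by edgeR (68 higher, 40 lower), edgeR called 66 with the GC trend and 64 to 83 when 1 mouse was left out, lowest without TAC 81 (69 without TAC 78). Lower calls numbered 102 with library totals, 72 when those totals left out the 5 most abundant, 63 under upper quartile factors and 65 unfiltered, and 18 to 29 when 1 mouse was left out. Higher calls numbered 25, 43, 41 and 42 in those settings, 45 with at least 10 counts in every library, 39 with the GC trend and 44 to 57 when 1 mouse was left out. RLE size factors gave 50 higher and 56 lower. Over all tested miRNAs the median log2 fold change was -0.23 with library totals and -0.14 without a filter, against 0.07 as reported. Of the 10 miRNAs, 0 to 4 were called when 1 mouse was left out and 3 to 6 in the other alternatives, and 0 were higher in any. The other rows upstream of Mirg called lower numbered 4 with library totals, 3 under upper quartile factors or when totals left out the 5 most abundant, 2 without a filter or with at least 10 counts, 0 by edgeR after thinning, which tested 4 of them with 2 at an unadjusted p under 0.05, and 1 in each fit without 1 mouse. Mirg rows called lower numbered 13 with library totals, 10 without the 5 most abundant, 3 with the GC trend and 1 to 4 when 1 mouse was left out, with 1 without sham 69, TAC 78 or TAC 81. miR-381-3p, not called, turned to -0.17 with library totals, -0.012 with upper quartile factors, -0.026 without the 5 most abundant and -0.017 without a filter. The arm ratio difference of miR-434 was 0.18 to 0.34 and that of miR-127 -0.016 (without sham 47) to 0.45 when 1 mouse was left out. The causes were not tested. No paired analysis was possible because the groups share no animal number. miR-431-5p had 4 to 16 counts a library and was tested only without a low-count filter.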
